A study of Mus musculus with 43 samples.

Results

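The lysosomal genes described here are 41 genes chosen by name: 11 proteases, 8 enzymes of glycan breakdown (7 glycosidases and the sulphamidase gene Sgsh), 8 genes of lipid breakdown and export, 5 membrane proteins, 6 proton pump subunits and 3 transcription factors that control them. All 41 were found among the 56748 genes of the deposited count table by their symbols, and all 41 were among the 20218 genes with enough counts to be tested. The names were not chosen from a threshold on these values, but they were chosen with earlier results of these data known. RNA was sequenced from the epididymal fat of male mice, a white and visceral fat depot. The SD group had a standard diet with 10% fat (7 libraries) and the HFD group a diet with 60% fat (10 libraries). Mice of 3 further groups had the diet with 60% fat and were given SZ-A, alkaloids from mulberry twigs (Ramulus Mori, Sangzhi), at 200 mg/kg/day (9 libraries), 400 mg/kg/day (8 libraries) or 600 mg/kg/day (9 libraries), called SZ-A 200, SZ-A 400 and SZ-A 600 below. The HFD group is the control without SZ-A for all 3 doses. The labels number the libraries as biological samples of a group and name no animals, so each p-value below is set against the spread between libraries, which may be technical.

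Lysosomes are membrane-bound compartments in which proteases, glycosidases and lipid hydrolases break down what a cell has taken up or what it delivers to itself by autophagy. The vacuolar ATPase, a rotary proton pump of many subunits, makes their interior acidic, and most of the hydrolases need that acidity. The transcription factors TFEB, TFE3 and MITF bind an E-box found near the start of many lysosomal genes, known as the CLEAR element. In fat tissue, adipocytes hold lysosomes, and macrophages that take up lipid from dying adipocytes hold many more. In RNA from whole tissue, fewer cells of a type and less RNA per cell cannot be told apart.

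The E-box was searched for in RefSeq promoter sequence of build GRCm38.p6, in the 250 bases before each annotated start, for the 35 members that the table holds. Ctsb, Ctsh, Npc1, Asah1, Atp6v0d2 and Atp6v1b2 are not among these 35. The letters CACGTG, which read the same on both strands, were found for 11 of these 35 members (31.4%), against 6.86% of 27025 genes and 6.02% of 32851 promoters of the same length. A member or gene counted if any of its annotated starts had them. For Ctsa and Lgmn they lay before 1 annotated start and not before another. The longer form TCACGTGA, which contains CACGTG and also reads the same on both strands, was found for 5 members (14.3%), against 0.907% of genes and 0.785% of promoters. The windows of 80 bases shown here are those of the 5 members with the longer form and of Lamp1, whose promoter holds CACGTG 4 times. The Lamp1 occurrence 15 bases before the start and the Ctsd occurrence 245 bases before it lie outside the windows shown. They are printed 5′ to 3′ on the strand of the gene, with the E-box, and its flanking bases where it has the longer form, in capitals.
Gla (chrX:134601176-134601255, minus strand): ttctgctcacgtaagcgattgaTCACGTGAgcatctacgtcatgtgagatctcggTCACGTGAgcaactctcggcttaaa
Ctsa (chr2:164833693-164833772, plus strand): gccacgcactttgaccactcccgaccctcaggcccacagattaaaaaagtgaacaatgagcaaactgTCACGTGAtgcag
Ctsd (chr7:142387884-142387963, minus strand): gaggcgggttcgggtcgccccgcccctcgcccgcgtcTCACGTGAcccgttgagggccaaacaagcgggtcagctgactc
Mcoln1 (chr8:3500436-3500515, plus strand): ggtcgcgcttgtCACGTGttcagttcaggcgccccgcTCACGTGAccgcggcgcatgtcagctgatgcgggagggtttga
Atp6v1a (chr16:44139349-44139428, minus strand): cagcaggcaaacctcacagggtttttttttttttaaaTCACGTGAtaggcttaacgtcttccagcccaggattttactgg
Lamp1 (chr8:13159063-13159142, plus strand): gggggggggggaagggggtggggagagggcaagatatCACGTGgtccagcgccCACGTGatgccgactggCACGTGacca

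The genes behind these 6 promoters are of different roles. Gla encodes the galactosidase that removes terminal galactose from glycolipids, Ctsa the serine carboxypeptidase that also shields other glycosidases, and Ctsd the aspartic protease cathepsin D. Mcoln1 encodes the lysosomal calcium channel TRPML1, Atp6v1a the catalytic subunit of the pump's outer part, and Lamp1 a glycoprotein of the lysosomal membrane. CACGTG alone was found for Glb1, Naglu, Sgsh, Lgmn and Ctsl. No CACGTG was found in the window of Gusb. A match is a stretch of letters in this window and not a measured binding site.

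**Figure D1:**
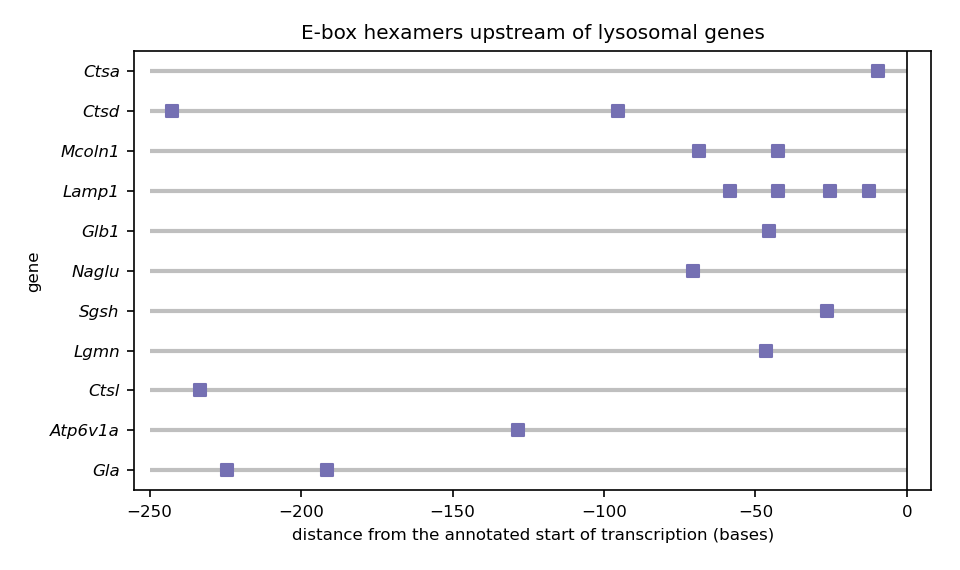
Each line is the 250 bases before an annotated start of 1 of the 11 members with CACGTG. The x axis gives the distance from the start in bases, and each square is 1 occurrence. Lamp1 has 4 occurrences, and Gla, Ctsd and Mcoln1 have 2 each.

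In units of 1e6 counts, library totals were 32.7 to 44.3, and the median library of a group had 35.7 (SD) to 38.9 (HFD). Levels are given below as normalised CPM, counts per 1e6 of the TMM-scaled library total, and for comparing genes with each other as the authors' FPKM, which is also per gene length. Genes of small noncoding RNA took a share of the counts that divided the libraries into 22 with 0.00319% to 0.00643% (set 1) and 21 with 0.00992% to 0.0229% (set 2). Set 1 held 2 of the 7 SD libraries and 5 libraries of every other group. The labels name no batch. Of the 43 libraries, 4 held at least 100 genes at 10 CPM or more and above 20 times their median level over the libraries, among them markers of ciliated, epididymal or squamous epithelium: SD library 4, SZ-A 400 libraries 3 and 6 and SZ-A 600 library 6. Both features are given beside some of the results they touch, but not beside every lowest or highest value below. SD library 4 was the highest of its group for 11 of 41 members. SZ-A 400 libraries 3 and 6 were the lowest of theirs for 11 and 25, and SZ-A 600 library 6 of its own for 37.

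Psap, the precursor of the saposins that help enzymes reach glycolipids, was the most abundant member per length in SD, at 738 ± 57.8 FPKM (SD over libraries, n = 7). Ctsb, the cysteine protease cathepsin B, followed at 274 ± 39.3 FPKM and Ctsd at 253 ± 74.3 FPKM. Gla was the lowest at 2.94 ± 1.196 FPKM, next to Tfeb at 3.11 ± 0.344 FPKM and Atp6v0d2, a subunit of the pump's membrane part, at 3.38 ± 3.14 FPKM. These 3 genes differed by less than the spread of Atp6v0d2. In HFD the first 3 places were again those of Psap (3090 ± 1562 FPKM, n = 10), Ctsb (1082 ± 490 FPKM) and Ctsd (1018 ± 504 FPKM), each with a spread that reached that of the next gene or beyond. Atp6v0d2 stood at 134 ± 88.2 FPKM, the 14th of the 41 in that group after place 39 in SD.

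Lysosomal genes of every role were higher on the high-fat diet. Of the 41 members, 36 were called higher in HFD than in SD at an adjusted p under 0.05 (edgeR quasi-likelihood test, Benjamini-Hochberg over all genes tested), and 0 were called lower. Of all genes tested, 18.4% were called higher and 13.3% lower in this comparison. The median log2 fold change was 1.66 over the members and -0.05 over all genes tested, and the members ranged from 0.11 (Neu1) to 5.35 (Atp6v0d2). Called higher were 10 of 11 proteases, 7 of 8 enzymes of glycan breakdown, 7 of 8 genes of lipid handling, 3 of 5 membrane proteins, 6 of 6 pump subunits and 3 of 3 transcription factors. The 5 members that did not pass were Ctsc, Neu1, Npc1, Scarb2 and Mcoln1. Within library set 1 alone 35 members were called higher, and within set 2 alone 2, with a median log2 fold change of 1.13 there. The share of all genes called in those fits is not given here, so these counts do not show a difference particular to the members. The difference of the diet effect between the sets passed for 0 members (smallest adjusted p 0.544, 3 members at an unadjusted p under 0.05), and for 0 of all genes tested, of which 9.05% were at an unadjusted p under 0.05.

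**Figure D2:**
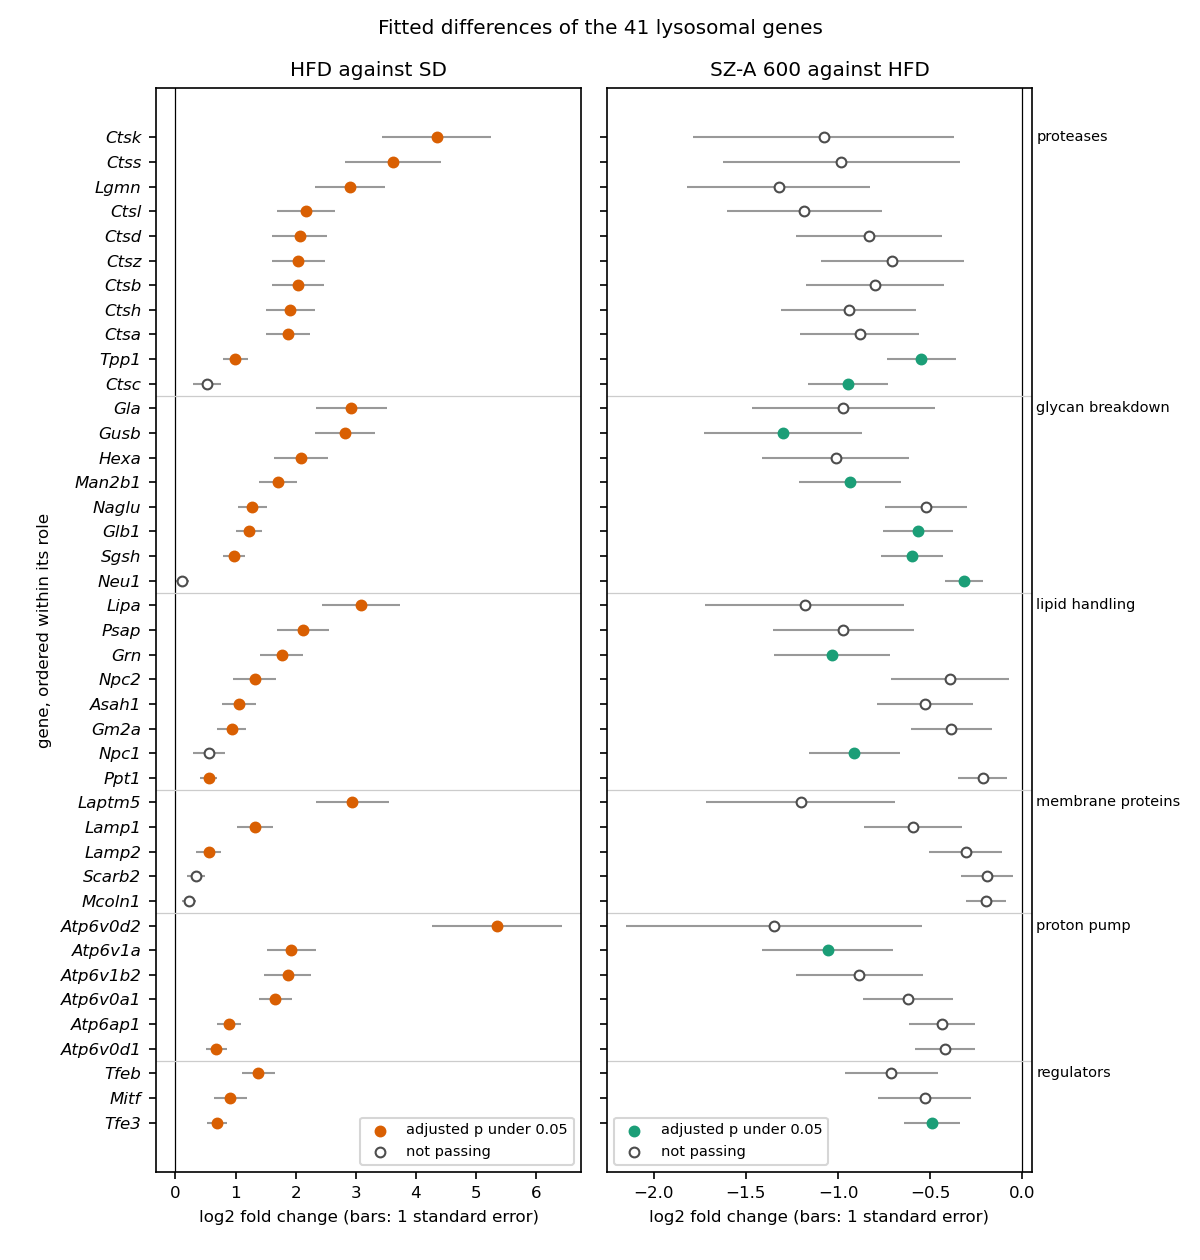
Points are fitted log2 fold changes of the 41 members, HFD against SD on the left and SZ-A 600 against HFD on the right, and bars are 1 standard error either way. Filled points passed an adjusted p of 0.05, and horizontal lines divide the roles. All 41 points lie above 0 on the left, where 36 are filled, and all 41 lie below 0 on the right, where 11 are filled.

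Among the proteases, Ctsk had the largest difference. Ctsk encodes cathepsin K, the collagen-degrading protease best known from osteoclasts. Its level was lowest at 8.10, with a median of 12.3 and a highest value of 41.3 CPM in SD, and 13.2, 411 and 721 CPM in HFD. Ctsk rose by 4.34 on the log2 scale (standard error 0.91, adjusted p 5.81e-04). In HFD, 8 of 10 libraries lay above the highest SD library, and libraries 8 and 10 lay within the SD range. Ctss, cathepsin S, which trims the invariant chain in antigen presentation, had 24.5, 54.2 and 274 CPM in SD and 52.6, 1062 and 2053 CPM in HFD. Ctss rose by 3.62 (standard error 0.79, adjusted p 8.73e-04), and its highest SD value belonged to SD library 4.

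Ctsc, cathepsin C, the dipeptidyl peptidase that activates granule proteases of immune cells, had the smallest difference among the proteases. Its levels were 76.1, 106 and 129 CPM in SD and 70.1, 140 and 241 CPM in HFD, and the groups overlapped, with 7 of 10 HFD libraries above all SD libraries and 1 below them. The log2 fold change was 0.53 (standard error 0.23, adjusted p 0.0738). The other 8 proteases, Ctsa, Ctsb, Ctsd, Ctsl, Ctsz, Ctsh, Lgmn and Tpp1, all passed, with log2 fold changes from 1.00 (Tpp1) to 2.90 (Lgmn). Lgmn, an asparaginyl endopeptidase that processes cathepsins, had 59.2, 70.4 and 201 CPM in SD and 96.9, 848 and 1274 CPM in HFD.

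Among the enzymes of glycan breakdown, Gusb and Gla moved most. Gusb encodes beta-glucuronidase, and its annotated span in the files is chromosome 5, 130017852 to 130031890, on the minus strand (the coordinates are those of the files, whose build could not be matched to the mm10 named in the submitters' processing notes). Gusb levels were 45.9, 57.6 and 70.6 CPM in SD and 55.0, 447 and 661 CPM in HFD. It rose by 2.82 (standard error 0.51, adjusted p 2.33e-04). All 7 SD libraries lay within a narrow range, 9 of 10 HFD libraries lay above it and HFD library 8 lay inside it. Gla levels were 6.24, 8.01 and 16.9 CPM in SD and 7.45, 73.1 and 155 CPM in HFD, with 8 of 10 HFD libraries above all SD libraries. Gla rose by 2.92 (standard error 0.59, adjusted p 4.62e-04).

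Neu1, the sialidase that forms a complex with cathepsin A and beta-galactosidase, differed least between the diets among the enzymes of glycan breakdown. Its levels were 58.3, 69.4 and 87.5 CPM in SD and 62.2, 77.5 and 89.5 CPM in HFD, so that only 3 of 10 HFD libraries lay above the SD range. The log2 fold change of Neu1 was 0.11 (standard error 0.11, adjusted p 0.46), and its direction flipped with upper-quartile scaling (-0.01) and within library set 2 (-0.12). The other 5 genes of this group passed: Hexa, which cleaves gangliosides, at 2.09, the mannosidase Man2b1 at 1.71, the heparan sulphate enzymes Naglu at 1.28 and Sgsh at 0.98, and the beta-galactosidase Glb1 at 1.23.

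Of the genes of lipid handling, Lipa had the largest difference. Lipa encodes lysosomal acid lipase, which frees fatty acids and cholesterol from stored esters. Lipa levels were 70.4, 88.4 and 131 CPM in SD and 56.0, 938 and 1411 CPM in HFD, and it rose by 3.09 (standard error 0.64, adjusted p 5.78e-04). HFD library 8 lay below all SD libraries, and 8 of 10 HFD libraries lay above them. Psap levels were 1679, 2048 and 2158 CPM in SD and 1499, 9718 and 14958.5 CPM in HFD, a rise of 2.12 (standard error 0.44, adjusted p 5.20e-04) with 9 of 10 HFD libraries above the SD range and HFD library 8 below it.

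Ppt1, the thioesterase that removes palmitate from proteins, had 61.4, 64.8 and 79.2 CPM in SD and 57.6, 102 and 124 CPM in HFD. It rose by 0.55 (standard error 0.14, adjusted p 0.00393), with 7 of 10 HFD libraries above all SD libraries. The 2 genes of cholesterol export differed: the soluble carrier Npc2 rose by 1.32 (standard error 0.36, adjusted p 0.00522) and the membrane protein Npc1 had a log2 fold change of 0.55 (standard error 0.27, adjusted p 0.105). The difference between Npc1 and Npc2 was not tested. The progranulin gene Grn, the acid ceramidase gene Asah1 and the GM2 activator gene Gm2a passed at 1.77, 1.06 and 0.94.

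The membrane proteins had the smallest median log2 fold change of the hydrolase, pump and membrane groups, 0.55, against 2.05 for proteases, 1.49 for glycan breakdown, 1.19 for lipid handling and 1.76 for the pump. Laptm5, a lysosomal protein of blood-derived cells, had 61.4, 74.0 and 151 CPM in SD and 51.5, 783 and 1086 CPM in HFD, and it rose by 2.94 (standard error 0.61, adjusted p 5.47e-04). HFD library 8 lay below all SD libraries and the other 9 above them. Lamp1 had 312, 372 and 451 CPM in SD and 384, 1042 and 1455 CPM in HFD and rose by 1.32 (standard error 0.29, adjusted p 0.00100). Lamp2, the partner of Lamp1 that also serves chaperone-mediated autophagy, passed at 0.55 with an adjusted p of 0.0440, and passed in 6 of the 17 fits that left out 1 library of either group. Mcoln1 had 39.9, 55.6 and 69.9 CPM in SD and 45.5, 68.5 and 78.8 CPM in HFD, a log2 fold change of 0.22 (standard error 0.12, adjusted p 0.127), and the groups overlapped for 6 of 10 HFD libraries. Scarb2, the receptor that carries glucocerebrosidase to the lysosome, was at 0.34 (standard error 0.15, adjusted p 0.0777).

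In the proton pump, 2 paralogs of the same subunit had fitted changes of unlike size, and the difference between these changes was not tested. Atp6v0d2, the form known from osteoclasts and macrophages (chromosome 4, 19876841 to 19922605, minus strand, coordinates of the files), had 0.694, 5.80 and 20.9 CPM in SD and 3.51, 411 and 655 CPM in HFD. It rose by 5.35 (standard error 1.08, adjusted p 4.47e-04), the largest difference of the 41 members, with HFD libraries 8 and 10 inside the SD range at 3.51 and 14.7 CPM and the other 8 above it. Atp6v0d1, the form found in most cells, had 80.3, 106 and 146 CPM in SD and 138, 183 and 238 CPM in HFD and rose by 0.68 (standard error 0.18, adjusted p 0.00380). By mean FPKM, Atp6v0d1 was above Atp6v0d2 in SD (65.1 against 3.38) and below it in HFD (101 against 134, within the spread of Atp6v0d2 in HFD).

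The other pump subunits also rose. Atp6v1a had 84.0, 97.01 and 121 CPM in SD and 55.2, 440 and 619 CPM in HFD, a rise of 1.93 (standard error 0.40, adjusted p 5.74e-04) with HFD library 8 below the SD range and 8 of 10 HFD libraries above it. Atp6v1b2, the other subunit of the pump's catalytic ring, rose by 1.87 and Atp6v0a1, of the proton channel, by 1.66, which was the member with the smallest adjusted p (1.24e-04) and with all 10 HFD libraries above all SD libraries. Atp6ap1, an assembly factor of the pump, rose by 0.89.

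All 3 transcription factors rose, by less than most of the hydrolases. Tfeb had 13.7, 17.2 and 19.4 CPM in SD and 19.4, 50.6 and 67.5 CPM in HFD and rose by 1.38 (standard error 0.28, adjusted p 4.75e-04), with 9 of 10 HFD libraries above the SD range. Tfe3 had 44.1, 46.7 and 51.6 CPM in SD and 52.6, 84.3 and 96.5 CPM in HFD, with no overlap between the groups, and rose by 0.69 (standard error 0.17, adjusted p 0.00203). Mitf had 21.3, 24.1 and 41.6 CPM in SD and 17.9, 57.4 and 68.8 CPM in HFD and rose by 0.91 (standard error 0.28, adjusted p 0.0109), with 7 of 10 HFD libraries above the SD range and 2 below it. The 11 members with CACGTG before a start had a median log2 fold change of 1.88 (0.22 to 2.92) and the 24 without it one of 1.35 (0.11 to 4.34), and these ranges overlapped. Atp6v0d2, the member with the largest difference, had no promoter sequence here and is in neither group. RNA levels of these factors say nothing of where the proteins are in the cell.

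The HFD libraries differed more among themselves than the SD libraries did. The summed level of the 41 members was lowest at 7395, with a median of 8881 and a highest value of 10308 CPM in SD, and 9337, 37951 and 55424 CPM in HFD. HFD library 8 was the lowest of its group for 29 of 41 members and library 10 for 8. In HFD library 8, 14 members lay above the SD range, 17 within it and 10 below it. Above it lay 38 to 40 members in HFD libraries 1 to 7, 31 in library 9 and 20 in library 10. How many of all genes lay outside the SD range was not counted, here or below. Without library 8, 39 members were called higher than in SD, and without library 9 or library 10, 38 were. The share of all genes called in these fits is not given here. The 5 set 1 libraries of HFD summed to 43598 to 55424 CPM and the 5 of set 2 to 9337 to 32304 CPM, without overlap.

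**Figure D3:**
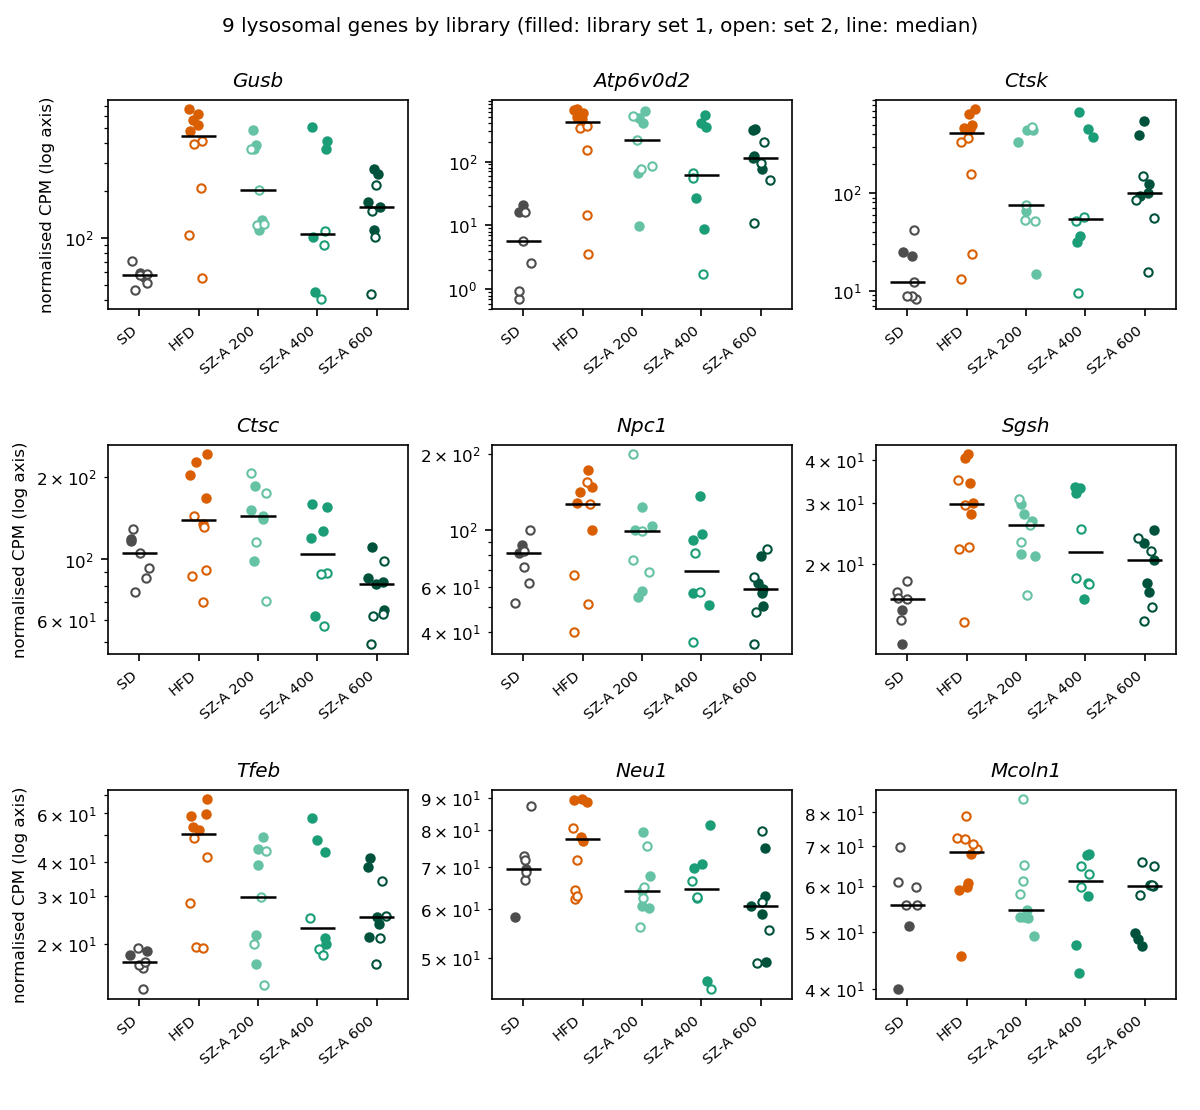
Each panel shows 1 member, with normalised CPM on a log axis and the 5 groups side by side. A point is a library (filled for set 1, open for set 2) and a line is the group median. SD libraries lie close together for Gusb and Tfeb, HFD libraries spread over an order of magnitude for Gusb, Atp6v0d2 and Ctsk, and Neu1 and Mcoln1 overlap across groups.

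Markers of macrophages moved with the lysosomal genes. Of 20 macrophage marker genes, 17 were called higher in HFD than in SD, with a median log2 fold change of 2.86, and none was at 0 in all libraries of a group. Their summed level was 744, 928 and 1703 CPM (lowest, median, highest) in SD, 1352, 9033 and 14027 in HFD, 1635, 6468 and 11118 in SZ-A 200, 434, 2015 and 12413 in SZ-A 400, and 713, 2764 and 6968 in SZ-A 600. HFD library 8 had the lowest sum of its group for the macrophage markers and for the members. Of 10 genes of lipid-associated macrophages, 6 were called higher in HFD. Of all genes tested, 18.4% were called higher and 13.3% lower in HFD than in SD. Of 14 genes of mature adipocytes, 1 was called higher and 2 lower in HFD than in SD, near or below those shares. Their log2 fold changes had a median of -0.59, and 1 was positive, beside 47.0% of all genes. The summed level was 14145, 43097 and 58256 CPM in SD and 13331, 20103 and 70307 CPM in HFD, with library 8 the highest of HFD. It was 15130.5, 30677 and 56136.5 CPM in SZ-A 200, 4244, 32295.5 and 55096 in SZ-A 400, and 15593, 43106 and 52972 in SZ-A 600. At 600 mg/kg/day 12 of the 14 were positive against HFD, beside 55.1% of all genes, with a median of 0.69. The part of these cell types in the differences of the lysosomal genes was not tested.

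Sums over the other marker lists also differed between libraries. Fibroblast and preadipocyte markers had a median sum of 1603 CPM in SD, 6348 in HFD, 2653 in SZ-A 200, 2181 in SZ-A 400 and 2150 in SZ-A 600. Endothelial markers had medians of 1841, 1120, 976, 1371 and 1258 CPM in the same order, and smooth muscle markers medians of 799, 793, 774, 981 and 743 CPM. The lipid-associated macrophage list summed to medians of 18041, 25820, 26266, 21705 and 23910 CPM. In SD this was far above the 928 CPM of the 20 macrophage markers. Its lowest library was also that of the adipocyte list in SD, SZ-A 400 and SZ-A 600, but not in HFD or SZ-A 200. Its 10 genes had log2 fold changes of -0.23 to 5.00 in HFD against SD (median 1.78). The sum is thus not read as a level of these cells, and which genes carried it was not tested. Lymphocyte markers had medians of 10.5 to 19.8 CPM, and mast cell and neutrophil markers medians of 33.5 to 87.2 CPM. Markers of ciliated epithelium reached 779 CPM in SD library 4 and 1386 CPM in SZ-A 600 library 6 against group medians of 4.61 to 6.12 CPM, and those of epididymal and squamous epithelium reached 23065 CPM in SZ-A 400 library 6.

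**Figure D4:**
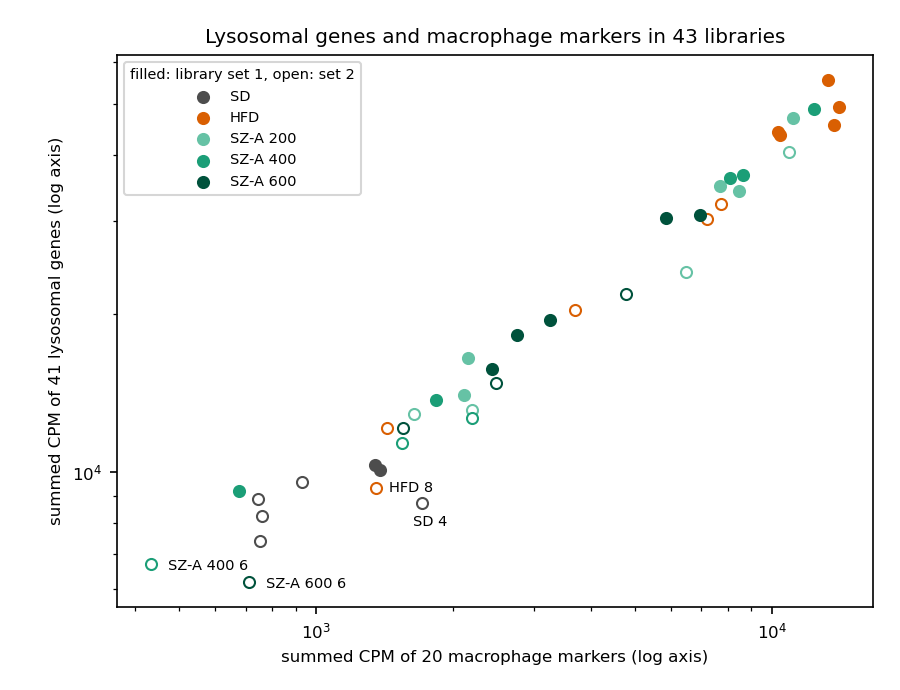
Each point is 1 of the 43 libraries, with the summed CPM of 20 macrophage markers on the x axis and of the 41 members on the y axis, both on log axes, coloured by group and filled for library set 1. HFD library 8 (1352 and 9337 CPM) lies among the SD libraries, and SZ-A 400 library 6 and SZ-A 600 library 6 have sums of the members below every SD library. Points share a library total on both axes.

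With SZ-A, 11 of the 41 members were called lower than in HFD at the highest dose and 30 did not pass, and that count was 3 to 22 with 1 library left out. No member passed at the lower doses. At 200 mg/kg/day 0 members were called in either direction, with 2 at an unadjusted p under 0.05 beside 6.91% of all genes, and DESeq2 and limma voom also called 0. Of all genes tested, 0.00989% were called higher and 0% lower at this dose. The median log2 fold change against HFD was -0.30 over the members and 0.02 over all genes. The members' median was -0.61 in library set 1 alone and -0.017 in set 2 alone. The members with the smallest p at 200 mg/kg/day were Tfeb at -0.54 (standard error 0.25, adjusted p 0.699), Neu1 at -0.22 (standard error 0.11, adjusted p 0.719) and Grn at -0.61 (standard error 0.31, adjusted p 0.732).

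At 400 mg/kg/day 0 members were called in either direction, with 10 at an unadjusted p under 0.05, beside 18.2% of all genes, and 0 called by DESeq2 and limma voom. Of all genes tested, 2.46% were called higher and 0.406% lower. The median was -0.55 over the members and 0.05 over all genes, and -0.36 over the members without the libraries that hold RNA of other tissue. Neu1 at -0.28 (standard error 0.11, adjusted p 0.157), Tfe3 at -0.37 (standard error 0.16, adjusted p 0.197) and Grn at -0.76 (standard error 0.32, adjusted p 0.198) had the smallest p. The SZ-A 400 libraries differed widely: the summed level of the members was 6692, 13201 and 48893 CPM, and library 2 was the highest of the group for 35 of 41 members. Without library 2, 2 members were called lower, and the share of all genes called in that fit is not given here. Libraries 3 and 6, which hold RNA of other tissue, had 9 and 20 members below the SD range.

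At 600 mg/kg/day 11 members were called lower than in HFD and 0 higher. Of all genes tested, 6.47% were called lower and 5.12% higher. The median log2 fold change was -0.80 over the members, all 41 of which were negative, and 0.06 over all genes, and 30 members had an unadjusted p under 0.05, beside 29.0% of all genes. The 11 were 2 proteases (Ctsc, Tpp1), 5 enzymes of glycan breakdown (Gusb, Glb1, Sgsh, Man2b1, Neu1), 2 genes of lipid handling (Npc1, Grn), 1 pump subunit (Atp6v1a) and 1 transcription factor (Tfe3), and none of the 5 membrane proteins. This comparison shares the HFD libraries with the diet comparison, in which Ctsc, Neu1 and Npc1 did not pass and the other 8 of these 11 did.

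Ctsc had the smallest adjusted p of the members at this dose. Its levels were 49.0, 81.5 and 111 CPM in SZ-A 600, all 9 libraries lay below the HFD median of 140 CPM, and 4 of 9 lay below the lowest HFD library. Ctsc fell by 0.94 (standard error 0.22, adjusted p 0.00859). Npc1, the membrane protein that moves cholesterol out of the lysosome, had 39.9, 127 and 172 CPM in HFD and 35.7, 59.1 and 84.4 CPM in SZ-A 600, and it fell by 0.91 (standard error 0.25, adjusted p 0.0177). In HFD, libraries 8, 9 and 10 had Npc1 levels of 39.9, 66.8 and 51.5 CPM, inside the range of SZ-A 600, and the other 7 had at least 100.6 CPM, above it. Ctsc and Npc1 passed in all 19 fits that left out 1 library of either group.

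Sgsh, the sulphamidase of heparan sulphate breakdown, had 13.6, 29.9 and 41.6 CPM in HFD and 13.6, 20.6 and 25.0 CPM in SZ-A 600 and fell by 0.60 (standard error 0.17, adjusted p 0.0202). Man2b1, the alpha-mannosidase, had 142, 540.5 and 745 CPM in HFD and 142, 245 and 370 CPM in SZ-A 600 and fell by 0.93 (standard error 0.28, adjusted p 0.0262). Grn, whose product is needed for normal lysosomal function, had 397, 1309 and 1697 CPM in HFD and 237, 493.3 and 1003 CPM in SZ-A 600 and fell by 1.03 (standard error 0.31, adjusted p 0.0295). Gusb had 43.3, 157 and 274 CPM in SZ-A 600 and fell by 1.30 (standard error 0.43, adjusted p 0.0435). For these 4 genes all 9 SZ-A 600 libraries lay below the HFD median, and the groups overlapped through the lowest HFD libraries.

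Tfe3 had 38.2, 54.3 and 65.7 CPM in SZ-A 600 and fell by 0.49 (standard error 0.15, adjusted p 0.0336), with 3 of 9 libraries below all HFD libraries. Neu1 had 49.2, 60.6 and 79.8 CPM and fell by 0.32 (standard error 0.11, adjusted p 0.0445), with 6 of 9 libraries below all HFD libraries. Atp6v1a, with 87.1, 170 and 291 CPM, fell by 1.06 (standard error 0.36, adjusted p 0.0460), and Glb1, with 36.6, 49.8 and 64.3 CPM, fell by 0.56 (standard error 0.19, adjusted p 0.0470). Tpp1, the tripeptidyl peptidase, had 160.0, 289.5 and 351 CPM in HFD and 112, 189 and 250.3 CPM in SZ-A 600. It fell by 0.55 (standard error 0.19), with an adjusted p of 0.04997, just under the threshold.

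Members with the largest diet differences did not pass at this dose. Atp6v0d2 had 10.8, 115 and 329 CPM in SZ-A 600, a log2 fold change of -1.35 with a standard error of 0.80 (adjusted p 0.262). Ctsk had 15.5, 101 and 553 CPM and a log2 fold change of -1.08 (standard error 0.71, adjusted p 0.314), and Ctss 56.4, 397 and 1080 CPM and -0.98 (standard error 0.64, adjusted p 0.312). Lipa (-1.18, adjusted p 0.138), Laptm5 (-1.202, adjusted p 0.112), Gla (-0.97, adjusted p 0.187), Psap (-0.97, adjusted p 0.0838), Lamp1 (-0.59, adjusted p 0.128), Tfeb (-0.71, adjusted p 0.0569) and Mitf (-0.53, adjusted p 0.154) were lower in the fit without passing. Ppt1 (-0.22, adjusted p 0.281), Mcoln1 (-0.20, adjusted p 0.214) and Atp6v0d1 (-0.42, adjusted p 0.0785) had smaller differences. The standard errors of Atp6v0d2 and Ctsk were over 3 times those of Ctsc.

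The levels across the doses, as the lowest, median and highest library, show how far the groups overlapped. Among the proteases, Ctsk had 14.7, 75.7 and 479 CPM in SZ-A 200 and 9.51, 53.9 and 679.6 CPM in SZ-A 400. Ctss had 97.96, 1059.8 and 1531 CPM and 36.9, 222 and 1724 CPM in these groups, and Ctsc 70.5, 144 and 207 CPM and 57.2, 105 and 159 CPM. For Ctsk 8 of 9 SZ-A 200 and 5 of 8 SZ-A 400 libraries lay above all SD libraries, and for Ctsc 6 of 9 and 2 of 8. Ctsl, cathepsin L, which passed only in the trend among the SZ-A comparisons, had 497, 2225 and 3885 CPM in HFD, 571, 963 and 4596 CPM in SZ-A 200, 188, 722 and 3063 CPM in SZ-A 400 and 436, 950.2 and 1607 CPM in SZ-A 600. The groups overlapped at every dose.

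For glycan breakdown, Gusb had 112, 201 and 491 CPM in SZ-A 200 and 40.1, 105 and 514 CPM in SZ-A 400, and its 9 SZ-A 200 libraries all lay above the SD range. Gla had 9.33, 46.2 and 113 CPM in SZ-A 200, 9.61, 21.7 and 119 CPM in SZ-A 400 and 9.83, 26.4 and 83.5 CPM in SZ-A 600. Neu1 had 56.1, 63.9 and 79.4 CPM and 44.6, 64.5 and 81.6 CPM at the lower doses. At none of the 3 doses did a library exceed the SD range for Neu1. In lipid handling, Lipa had 126, 576 and 1226 CPM, then 22.9, 228 and 1194 CPM and 63.7, 303 and 633 CPM at 200, 400 and 600 mg/kg/day. Psap had 2561, 7368 and 11202 CPM, then 1872, 2963 and 12273 CPM and 1259.5, 3727 and 7534 CPM, and Ppt1 73.7, 98.7 and 114 CPM, then 62.8, 85.7 and 116 CPM and 63.2, 90.8 and 103 CPM. For Psap all 9 SZ-A 200 libraries, 6 of 8 SZ-A 400 libraries and 8 of 9 SZ-A 600 libraries lay above all SD libraries. Grn had 407, 727 and 1214 CPM in SZ-A 200 and 279, 426 and 1556 CPM in SZ-A 400.

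Membrane proteins also overlapped between groups. Laptm5 had 92.7, 586 and 1079 CPM in SZ-A 200, 45.3, 181 and 935 CPM in SZ-A 400 and 55.6, 230.3 and 533 CPM in SZ-A 600. Lamp1 had 441, 655 and 1212 CPM, then 375, 497 and 1355 CPM and 306, 635 and 956 CPM in the same order, and Mcoln1 49.3, 54.6 and 84.2 CPM, then 42.6, 61.2 and 67.98 CPM and 47.4, 59.9 and 65.8 CPM. Of the Mcoln1 values, 1 at 200 mg/kg/day and 0 at the other doses lay above the SD range. In the pump, Atp6v0d2 had 9.92, 220.3 and 629 CPM in SZ-A 200 and 1.76, 60.9 and 539 CPM in SZ-A 400. Atp6v0d1 had 109, 177 and 209 CPM, then 105, 159.9 and 220.0 CPM and 73.3, 151 and 172 CPM at 200, 400 and 600 mg/kg/day, and Atp6v1a 135, 259 and 561 CPM and 116, 149 and 453 CPM at the lower doses. For Atp6v0d2 8 of 9 SZ-A 200 and 6 of 8 SZ-A 400 libraries lay above all SD libraries.

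The transcription factors had lower medians than in HFD at each dose. Tfeb had 14.2, 29.7 and 49.2 CPM in SZ-A 200, 18.3, 22.98 and 57.6 CPM in SZ-A 400 and 16.95, 25.1 and 41.4 CPM in SZ-A 600. Tfe3 had 49.8, 59.9 and 97.1 CPM and 34.9, 55.5 and 91.2 CPM at the lower doses, and Mitf 18.8, 46.00 and 82.9 CPM, then 19.4, 31.9 and 60.5 CPM and 18.6, 32.8 and 46.5 CPM at the 3 doses. For Tfeb 7 of 9, 6 of 8 and 8 of 9 libraries lay above all SD libraries at the 3 doses, and for Mitf 5 of 9, 2 of 8 and 3 of 9.

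The count of 11 moved with single libraries, and the share of all genes called in those fits is not given here. It was 3 without HFD library 3 or SZ-A 600 library 6, 4 without HFD library 4 or 5 or SZ-A 600 library 5 or 7, 5 without HFD library 1 or 2, 6 without HFD library 6 or SZ-A 600 library 2, 3 or 9, and 7 without HFD library 7. It was 18 without HFD library 10 and 22 without HFD library 8. Of the 11, Sgsh passed in 18 of the 19 fits, Man2b1 in 16, Grn in 13, Tfe3 in 10, and Tpp1, Gusb, Glb1, Neu1 and Atp6v1a in 6 each. Within library set 1, 22 members were called lower, and within set 2, 0, while the difference of the effect between the sets passed for 0 members (smallest adjusted p 0.534, 0 at an unadjusted p under 0.05) and for 0 of all genes tested, of which 11.3% were at an unadjusted p under 0.05. With the set as a term in the fit 24 were called lower, and without the 4 libraries that hold RNA of other tissue 8 were. For these fits, too, the share of all genes called is not given. Of the 20 macrophage markers, 10 were called lower at 600 mg/kg/day in the main fit, beside 6.47% of all genes. The part of these markers in the result was not tested.

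Over the 4 high-fat groups, a linear trend with dose passed for 11 members, all lower with dose, and for 0 in the other direction. Of all genes tested, 7.86% fell with dose and 6.82% rose. The median slope was -0.27 on the log2 scale per 200 mg/kg/day over the members, with 31 at an unadjusted p under 0.05, beside 30.9% of all genes. Ctsc fell by 0.32 per 200 mg/kg/day (standard error 0.07, adjusted p 0.00435) and Npc1 by 0.31 (standard error 0.08, adjusted p 0.0100). The other 9 were Ctsl (-0.39), Tpp1 (-0.18), Gusb (-0.42), Sgsh (-0.18), Man2b1 (-0.30), Neu1 (-0.10), Grn (-0.32), Atp6v1a (-0.36) and Tfe3 (-0.16). The trend and the 600 mg/kg/day comparison share their libraries. Group medians were not ordered by dose for all of them: Gusb had medians of 447, 201, 105 and 157 CPM at 0, 200, 400 and 600 mg/kg/day, whereas those of Ctsc were 140, 144, 105 and 81.5 CPM.

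This count, too, moved with single libraries. It was 3 without SZ-A 600 library 6, 5 without HFD library 3, 6 without HFD library 2, 4 or 5 or SZ-A 600 library 7, and 7 without HFD library 1 or SZ-A 600 library 5. It was 17 without SZ-A 200 library 9 or SZ-A 400 library 5, 18 without HFD library 9, 20 without SZ-A 600 library 1, 21 without HFD library 10 or SZ-A 400 library 2, and 24 without HFD library 8. Without the 4 libraries with RNA of other tissue 6 members fell with dose. The share of all genes called in these fits is not given here. Of the macrophage markers, 12 of 20 fell with dose in the main fit, beside 7.86% of all genes.

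Compared with the standard diet, the SZ-A 600 libraries still had higher levels of some members. Of the 41, 5 were called higher than in SD and 0 lower, beside 2.01% of all genes higher and 1.36% lower, and the median log2 fold change was 0.77 over the members and 0.03 over all genes. Atp6v0d2 was higher by 4.01 (standard error 1.011, adjusted p 0.0220), Ctsk by 3.27 (standard error 0.86, adjusted p 0.0284), Ctss by 2.64 (standard error 0.76, adjusted p 0.0433), Gla by 1.95 (standard error 0.57, adjusted p 0.0472) and Atp6v0a1 by 1.04 (standard error 0.27, adjusted p 0.0264). Atp6v0a1 levels were 119, 158 and 222 CPM in SD, 236, 596 and 681 CPM in HFD and 127, 318 and 504 CPM in SZ-A 600. For Atp6v0d2, Ctsk, Gla and Atp6v0a1 8 of 9 SZ-A 600 libraries lay above all SD libraries. This comparison shares the SD group with the diet comparison and the SZ-A 600 group with the dose comparison.

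Only 3 members had negative values against SD: Ctsc at -0.41 (adjusted p 0.323), Npc1 at -0.36 (adjusted p 0.486) and Neu1 at -0.21 (adjusted p 0.316). The median SZ-A 600 library had 33 members above the SD range, against 39 in HFD, 36 in SZ-A 200 and 22 in SZ-A 400. The share of all genes above that range was not counted. SZ-A 600 library 6 had 1 member above that range and 22 below it and was the lowest of its group for 37 of 41 members. Without it 16 members were called higher than in SD, and 8 were without SD library 4. The count was 3 without SD library 1 or SZ-A 600 library 2 or 3, 2 without SZ-A 600 library 8, 1 without SD library 2 or 7 or SZ-A 600 library 1 or 4, and 0 without SD library 3, 5 or 6. Without all 4 libraries with RNA of other tissue 17 were called higher. The share of all genes called in these fits is not given here. Of the macrophage markers, 4 of 20 were called higher in SZ-A 600 than in SD in the main fit, beside 2.01% of all genes.

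Further genes of the lysosome were read from lists that hold none of the 41. For the diet comparison, 18.4% of all genes tested were called higher and 13.3% lower. Of 16 tested subunits and partners of the proton pump, 11 rose on the high-fat diet and 0 fell, led by Tcirg1, the osteoclast form of the channel subunit, at 2.36 (standard error 0.50, adjusted p 6.87e-04). Atp6v0a4 at -1.86 (adjusted p 0.161) and Atp6v1c2 at -1.66 (adjusted p 0.0850), forms of kidney and epithelium, did not pass. Of 40 other hydrolases, 23 rose and 0 fell, with the exonuclease Pld3 at 3.06, the thiol reductase Ifi30 at 3.04 and the acid nuclease Dnase2a at 2.64. Of 25 other membrane and transport genes, 13 rose and 2 fell, among them the macrophage glycoprotein Cd68 at 3.94, the peptide transporter Slc15a3 at 3.69 and the channel Mcoln3 at -3.39 (standard error 1.30, adjusted p 0.0430). The other gene of this list that fell was Sidt2 (-0.62). The part of SD library 4, which holds RNA of other tissue, in the values of these lists, Mcoln3 among them, was not tested.

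Of 22 genes that deliver and sort lysosomal proteins, 15 rose and 1 fell. Nagpa, which uncovers the mannose 6-phosphate tag of hydrolases, rose by 1.34, the adaptor subunit gene Ap1s1 by 1.24 and the tethering complex gene Vps18 by 1.16, and the sorting receptor gene Sort1 fell by 0.56. Of 25 genes of control and autophagy, 11 rose and 3 fell, with Gpnmb, a glycoprotein of lipid-laden macrophages, at 4.90, Tfec, a relative of Tfeb, at 1.95 and the coactivator gene Ppargc1a at -2.02. Ulk1 and Zkscan3 were the other 2 that fell. The shares of all genes called in this comparison were 18.4% higher and 13.3% lower, as above. In none of these lists was the share that fell above that of all genes.

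Between SZ-A 600 and HFD, 10 of the 40 other hydrolases fell and 0 rose, among them the exonuclease Pld4 by 1.24 (standard error 0.32, adjusted p 0.0140). Of the 22 delivery genes 5 fell, among them Vps18 by 0.79 and Igf2r, the large mannose 6-phosphate receptor, by 0.76. Of the 16 pump genes 1 fell (Atp6v0a2), of the 25 membrane and transport genes 1 fell (Tpcn1) and 1 rose (Cd164), and of the 25 control genes 1 fell (Rptor) and 1 rose (Ppargc1a, by 1.19 with a standard error of 0.39 and an adjusted p of 0.0394). The genes named here at 600 mg/kg/day other than Ppargc1a were chosen after their values were seen. The background shares are those of the 600 mg/kg/day comparison, 6.47% lower and 5.12% higher.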

How the data were processed

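RNA-seq was made from epididymal white fat of male mice, 43 libraries in 5 groups taken from the labels. Per the labels, RNA was selected for poly(A), libraries kept the strand and were read as 150 bp pairs. A table of raw read counts for each gene was deposited by the authors, and its values were tested unchanged. FPKM values in the authors' second deposited table were used to compare levels between genes and for alternatives (log2 with a pseudocount of 1 or 0.1). Submitters' processing notes name mm10, but only 1 of 41 members shares a start or end with a GRCm38 annotation, so coordinates are those of the files. How reads were aligned and counted is not given in the sources used here. All columns were mapped to samples by name.

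Counts were fitted in 1 model over all 43 libraries with edgeR 4.0.16 in R 4.3.3 (filterByExpr, TMM factors, robust quasi-likelihood F test), and p-values were adjusted over 20218 genes. A gene was called at an adjusted p under 0.05. The members and lists were chosen with earlier results of these data known. Values in every group are given for Gusb, Atp6v0d2, Tfeb, Tfe3, Mitf and, per role, the 2 largest and the 1 smallest absolute diet differences. Members called in an SZ-A comparison are named, as are the 3 with the smallest p at a dose without calls. Library sets and libraries with RNA of other tissue were defined from the data: the latter hold at least 100 genes at 10 CPM or more and above 20 times their median over the libraries. Alternatives used limma 3.58.1 and DESeq2 1.42.0, other scalings and filters, each library left out, the library set and the replicate block. The scripts were tested on simulated data. Python 3.11.15 with matplotlib 3.10.9 drew the figures.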

Additional observations from a re-analysis of the deposited data

Results flagged for a closer look

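The values of each of the 41 members were examined for a single library far from the rest in each of the 5 groups, 205 groups of values in all. A gap of this size arises by chance in about 1 in 20 groups, or 10.25 here, and 10 were found. In the SD group, library 4, which holds RNA of other tissue, stood above the other 6 for Ctss (274 CPM), Ctsh (89.0 CPM), Naglu (48.0 CPM), Man2b1 (192 CPM) and Laptm5 (151 CPM), and library 2 for Atp6v1b2 (201 CPM) and Mitf (41.6 CPM). In the SZ-A 200 group, library 2 stood above the others for Ctsl (4596 CPM), and library 7 for Npc1 (198 CPM) and Mcoln1 (84.2 CPM). Without SD library 4, 35 members were called higher in HFD than in SD, against 36 with it. The share of all genes called without it is not given here.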

How the results depend on the processing

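All 41 members kept the direction of their difference between HFD and SD under every scaling, filter, tool and left-out library tried, except Neu1, which was at -0.012 with upper-quartile factors (these moved the median of all genes from -0.05 to -0.17) and at -0.12 in library set 2 alone. In library set 2 alone 2 members were called higher in HFD, with a median of 1.13 over the members, and no member was called at 600 mg/kg/day, in the trend or against SD (0 in each). The median at 200 mg/kg/day was -0.61 in set 1 alone and -0.017 in set 2 alone. Set 1 alone gave 22 members lower at 600 mg/kg/day and 0 higher than SD. Members lower at 600 mg/kg/day, falling with dose, and higher at 600 mg/kg/day than in SD numbered 11, 11 and 5 as reported. They were 39, 39 and 35 with limma voom (2 lower than SD), 19, 21 and 13 with DESeq2, 7, 10 and 5 with upper-quartile factors, 5, 7 and 3 with limma-trend on log2 FPKM at either pseudocount, and 5, 8 and 2 without the filter. With only the groups compared they were 14, 9 and 24, with the library set as a term 24, 30 and 3, without the 4 libraries with RNA of other tissue 8, 6 and 17, and with both changes 24, 24 and 16 (1 lower than SD). The trend gave 16 in set 1 alone. The replicate block gave 25, 33 and 29, with 39 higher in HFD and 1 lower at 400 mg/kg/day. The labels do not say that a replicate number marks a shared animal or batch, but it tracks the library set: numbers 1 to 5 are set 1 and the rest set 2 in HFD and the 3 SZ-A groups, while in SD 1 and 2 are set 1. Deviations of log2 CPM from the mean of a library's own group were correlated between same-numbered libraries. This correlation was above 0.1 in 4 of 7 pairs of HFD and SD and 6 of 9 of SZ-A 200 and HFD (median r 0.41, other numbers -0.08). Against HFD it was above 0.1 in 6 of 8 pairs at 400 mg/kg/day (0.25, others -0.08) and 6 of 9 at 600 (0.15, others -0.01). The own number was the best match in 1, 3, 0 and 0 pairs. The block and the set are thus not separate there. With 1 library left out at a time, members lower at 600 mg/kg/day ranged from 3 to 22, in the trend from 3 to 24, at 400 mg/kg/day from 0 to 2, and higher than SD from 0 to 16. The counts of members in other fits, here and above, are given without the share of all genes called in the same fit. They do not show whether the members shifted more than other genes did. The cause of these shifts was not tested, and depth was similar in all groups.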
